A study of Mus musculus with 26 samples.

Results

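A set of 10 genes that regulate or mark the erythroid and megakaryocyte lineages was followed across natural and synthetic receptors for interleukin-22 (IL-22): Gfi1b, Gfi1, Klf1, Gata1, Gata2, Tal1, Zfpm1, Lmo2, Epor and Tfrc. Members were all probe sets annotated to exactly 1 of these symbols. Each of the 10 genes had 1 such probe set, so they made up 10 of 35556 probe sets and 10 of the 19938 genes tested. The rule reads symbols alone, but the set was proposed with earlier results of these data known, so its counts are a description of genes of interest. RNA was read on 26 arrays from murine Ba/F3/gp130 cells, a cytokine-dependent line in which every group carried gp130, the shared signal chain of IL-6 family receptors, and which was kept in Hyper-IL-6, a fusion of IL-6 with its soluble receptor. Cells with the natural receptor pair IL-10R2 and IL-22Rα1 were given IL-22 (n = 4) or left untreated (n = 4). Cells with the synthetic pair, in which an mCherry nanobody was joined to IL-10R2 and a GFP nanobody to IL-22Rα1, were given a GFP-mCherry fusion (n = 6), given mCherry-Fc (n = 6) or left untreated (n = 6). Per the labels' protocols cells of every group went through 4 washes and 4 h of serum-free starvation, and ligands were used at 100 ng/ml for 2 h. No group received a control protein, and the labels do not say how many clones stand behind either line or whether replicates were separate cultures, so p-values measure only the spread between these samples, which may be technical.

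Red cell and platelet precursors share a small set of transcription factors. GATA2 acts in progenitors and gives way to GATA1, and both work in a complex with TAL1, LMO2 and LDB1, with FOG1 (the product of Zfpm1) as cofactor. KLF1 drives the red cell programme, GFI1B and its relative GFI1 repress target genes by recruiting LSD1 and CoREST, and the erythropoietin receptor (Epor) and transferrin receptor (Tfrc) bring in the survival signal and the iron that a maturing red cell needs. Epor signals through JAK2 and STAT5, which belong to the same kinase and factor families as those used by the IL-22 receptor.

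The labelled pro-B identity was set beside B lineage markers. Of 14 pro-B and B lineage genes listed, 13 were measured. Cd79a averaged 9.33 to 9.72 (log2 intensity) across the 5 groups and Ptprc, which marks all white cells, 10.58 to 10.82. Pax5, Ebf1, Rag1, Rag2 and Blnk averaged 3.74 to 5.55 in every group, below all array medians (6.06 to 6.28). Levels of the other listed genes are not given here. The mean of log2 values over the 13 ran from 6.07 to 6.33 across the arrays. Since the values do not mark background and probe sets differ in brightness, these levels do not settle the label. Arrays of a group correlated at 0.981 to 0.994 across probe sets. Once group means were taken out, the second principal component of all 26 arrays parted low from high replicate numbers in each of the 5 groups. The sides were the same in all 5. The first component parted them in all but the GFP-mCherry group. On it the sides in natural cells were the reverse of those in untreated synthetic and mCherry-Fc cells. Numbers 1 to 3 in natural and 7 to 11 in synthetic cells are called low here, and numbers 4 and 5 and 12 to 15 high. Nothing in the labels ties the low or high numbers of one line to those of the other. The labels give these numbers no meaning as a batch. In the natural line the split also showed in Itgam, a myeloid integrin chosen after its values were seen. It read 12.05 on IL-22 array 5, against 8.73 to 8.98 on IL-22 arrays 1 to 3, and 11.73 and 11.99 on untreated arrays 4 and 5, against 8.77 and 8.85 on untreated arrays 2 and 3. On all 18 synthetic arrays Itgam lay between 4.72 and 6.02. The high natural numbers hold only 1 IL-22 array. Where a value within a number range changes the call of a gene, it is given beside that gene.

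Promoter windows of 300 bases, 250 before to 50 after a transcription start, were taken from RefSeq (GRCm38.p6), which held 13 windows for 9 of the 10 genes; Lmo2 is named only. The windows of Gata2 and Tfrc hold none of the GATA letters given below and are not among those shown. Those of Gfi1b and Klf1 are shown because these genes had the largest differences with IL-22. That of Epor is shown because its difference changed sign between ligands, as that of Tfrc also did. Each is written 5′ to 3′ on the gene's strand. Capitals mark the GATA letters AGATAA or TGATAA and the STAT letters TTCNNNGAA, searched on both strands.
Gfi1b, chr2:28621933-28622232, minus strand: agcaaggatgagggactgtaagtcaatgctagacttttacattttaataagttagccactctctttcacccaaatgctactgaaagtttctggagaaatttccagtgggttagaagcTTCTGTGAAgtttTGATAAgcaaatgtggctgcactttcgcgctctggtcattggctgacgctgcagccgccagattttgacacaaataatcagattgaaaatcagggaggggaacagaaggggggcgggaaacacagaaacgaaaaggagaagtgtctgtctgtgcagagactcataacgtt
Klf1, chr8:84901732-84902031, plus strand: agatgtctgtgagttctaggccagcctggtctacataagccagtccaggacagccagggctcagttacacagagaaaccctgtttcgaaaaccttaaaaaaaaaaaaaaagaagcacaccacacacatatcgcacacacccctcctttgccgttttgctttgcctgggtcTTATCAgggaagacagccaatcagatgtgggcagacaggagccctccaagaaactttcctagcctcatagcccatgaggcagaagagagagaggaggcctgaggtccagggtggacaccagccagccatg
Epor, chr9:21963527-21963826, minus strand: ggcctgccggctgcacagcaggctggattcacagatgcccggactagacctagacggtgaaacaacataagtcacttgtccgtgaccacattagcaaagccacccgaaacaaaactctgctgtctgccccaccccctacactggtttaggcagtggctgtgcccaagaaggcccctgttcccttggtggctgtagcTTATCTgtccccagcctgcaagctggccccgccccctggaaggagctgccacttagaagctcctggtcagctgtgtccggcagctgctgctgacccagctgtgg
The GATA letters were found in 4 of the 13 windows: the 3 above, at -120 for Gfi1b, -80 for Klf1 and -54 for Epor, and 1 window of Tal1 at -205 (bases counted from the start site). They occurred in 18.6% of 32851 mouse promoter windows. The STAT letters were found in the Gfi1b window alone, at -133, and in 8.30% of all windows. The Gfi1b window was also the only one of the 13 with AAATCNNNG, the core letters of the GFI1 and GFI1B motif, at -34, which 10.6% of all windows hold. CCNCNCCC, letters of the motif bound by KLF1, stood in 11 of the 13 windows and in 49.5% of all windows, and CAGNTG, an E-box bound by TAL1 and its partners, in 6 of the 13 and in 51.4% of all. In the Gfi1b window the AAATCNNNG letters overlapped a CCNCNCCC match.

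With IL-22, 7 of the 10 genes fell: Gfi1b, Klf1 and Gata2 by more than 1 on the log2 scale, and Zfpm1, Lmo2, Tfrc and Epor by less. None rose, and Gata1, Tal1 and Gfi1 did not pass. Among all genes tested 6.03% were called lower and 5.39% higher. The median difference was -0.40 over the 10 genes and -0.02 over all genes. The synthetic receptor gave another picture. With GFP-mCherry, Gfi1b and Klf1 fell and Epor and Tfrc rose (background 11.8% lower and 14.2% higher). With mCherry-Fc, Klf1 and Gfi1 fell and Epor and Tfrc rose (background 13.0% lower and 14.0% higher). The member counts with the synthetic ligands, 2 in each direction of 10, lie near these backgrounds. Both synthetic comparisons use the same 6 untreated arrays. In these bulk samples fewer cells of a kind and less RNA per cell cannot be told apart. Centring each array on its own median moved the median difference of all genes up by 0.10 with GFP-mCherry and by 0.11 with mCherry-Fc. The share of calls that were higher then went to 88.5% in place of 54.8% with GFP-mCherry and to 88.8% in place of 51.9% with mCherry-Fc. Small differences of the 10 genes in the synthetic line are therefore read below beside that scaling. Genes outside the 10 were not read after centring, so their small differences in the synthetic line hold for the deposited scale only.

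**Figure D1:**
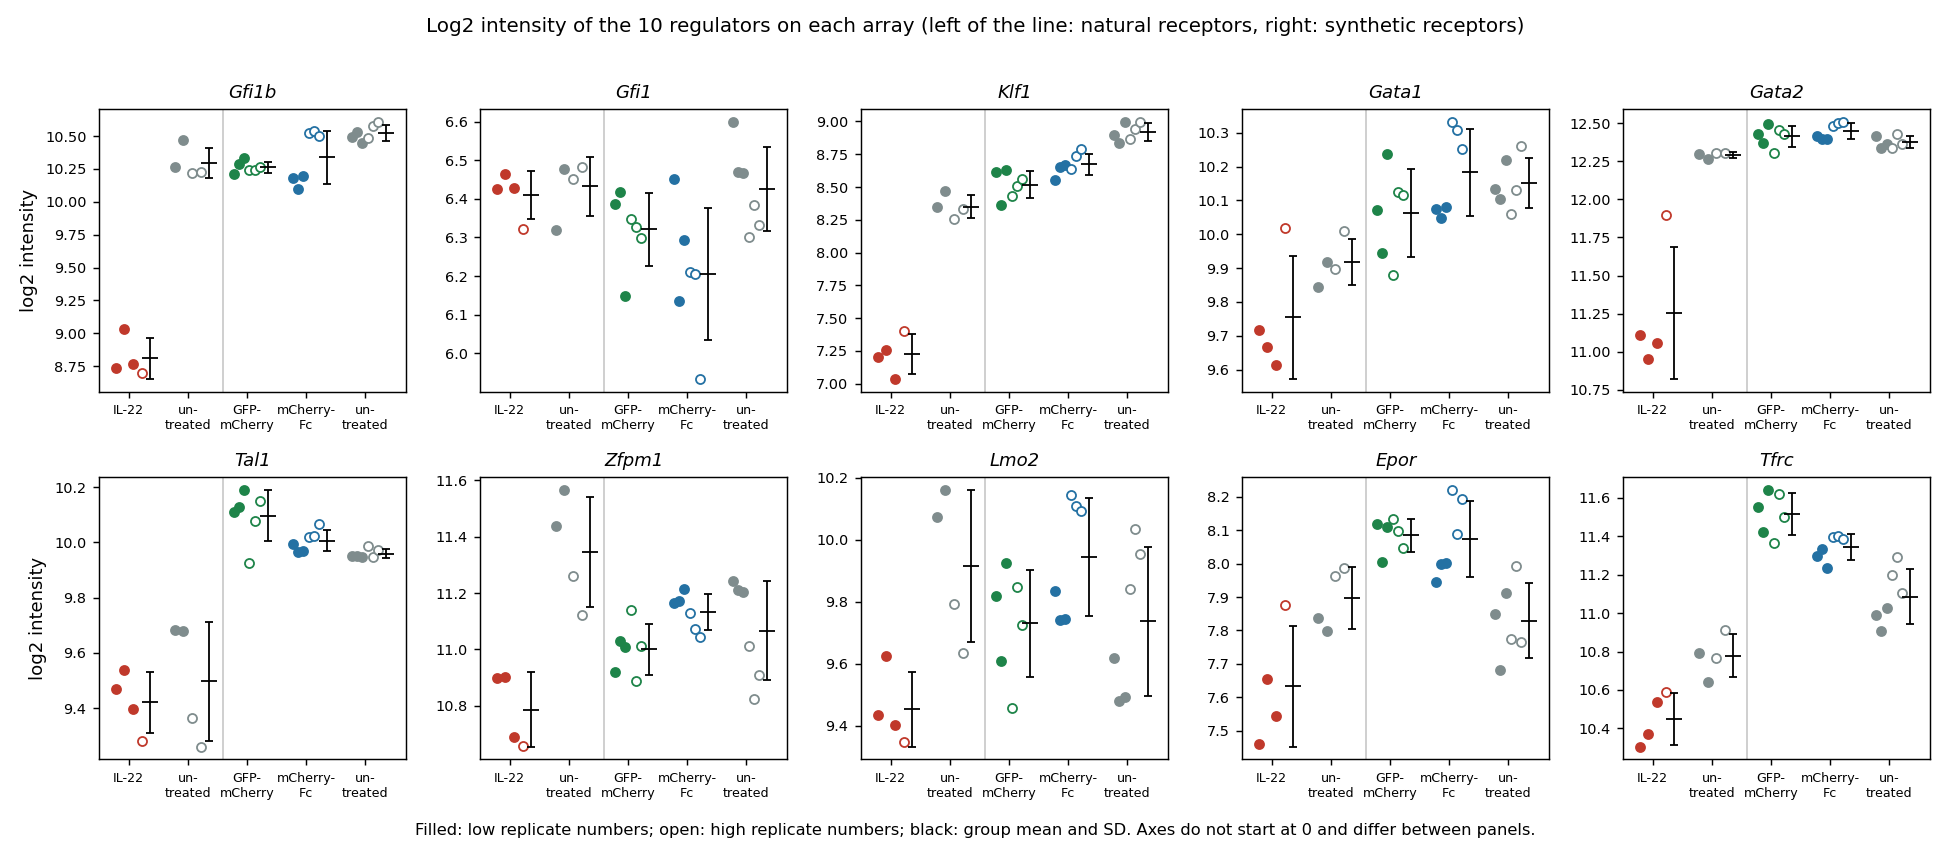
Log2 intensity (vertical axis) of each of the 10 genes on each of the 26 arrays, by group, with filled points for low and open points for high replicate numbers and black bars for the group mean and SD. The 4 IL-22 arrays sit below the untreated natural arrays for Gfi1b, Klf1 and Gata2, with IL-22 array 5 at 11.90 above the other 3 for Gata2.

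**Figure D2:**
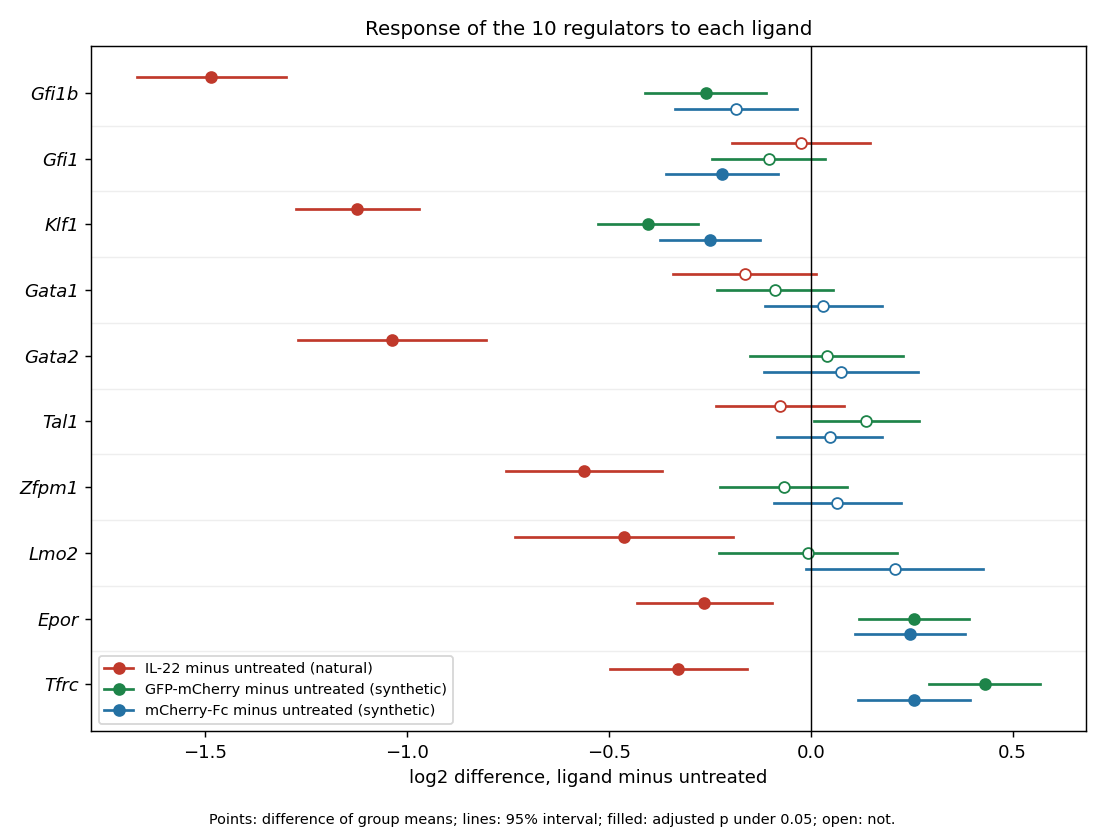
Difference of mean log2 intensity, ligand minus untreated (horizontal axis), for each of the 10 genes and each of 3 ligands, with 95% intervals; filled points have an adjusted p under 0.05. Epor and Tfrc lie left of 0 with IL-22 and right of 0 with GFP-mCherry and mCherry-Fc.

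Gfi1b, which encodes a zinc finger repressor needed for red cells and platelets, had the largest difference of the 10. It read 8.74, 9.04, 8.77 and 8.69 on the 4 IL-22 arrays, against 10.27, 10.47, 10.22 and 10.23 on the 4 untreated natural arrays. The groups were far apart, with every IL-22 array more than 1 unit below every untreated one. Gfi1b fell 2.80-fold (log2 difference -1.49, 95% interval -1.67 to -1.30, adjusted p = 5.06e-13) and ranked 5th from the lowest of the 19938 genes by log2 difference. The difference was -1.52 within low and -1.53 within high replicate numbers. In the synthetic line its lowest, median and highest values were 10.21, 10.25 and 10.33 with GFP-mCherry, 10.09, 10.35 and 10.54 with mCherry-Fc, and 10.45, 10.51 and 10.61 in untreated cells. All GFP-mCherry arrays lay below all untreated ones, whereas the mCherry-Fc arrays split into 10.18, 10.09 and 10.20 for numbers 8 to 10, below every untreated array, and 10.52, 10.54 and 10.50 for numbers 13 to 15, inside the untreated range. Gfi1b fell by 0.26 on the log2 scale with GFP-mCherry (SE 0.07, adjusted p = 0.00974), which centring took to -0.16 (adjusted p = 0.166). Within low numbers that difference was -0.21 (adjusted p = 0.0604) and within high numbers -0.31 (adjusted p = 0.00237). With mCherry-Fc the difference was -0.18 and did not pass (adjusted p = 0.0617). Within low numbers it was -0.33 (adjusted p = 0.0109) and within high numbers -0.04 (adjusted p = 0.682). It passed, at -0.22, without mCherry-Fc array 13, 14 or 15 (adjusted p = 0.039, 0.0328 and 0.0419), and at -0.23 after quantile normalization (adjusted p = 0.0199). From lowest to highest mean, the groups ran IL-22 (8.81), GFP-mCherry (10.26), untreated natural (10.29), mCherry-Fc (10.34) and untreated synthetic cells (10.52). Only the step above IL-22 had no overlap between neighbours.

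Gfi1, the paralogue that acts mainly in lymphoid and myeloid precursors, did not follow Gfi1b. It read 6.43, 6.46, 6.43 and 6.32 with IL-22, against 6.32, 6.48, 6.45 and 6.48 in untreated natural cells. These values overlapped and lay close to the array medians. The difference was -0.02 (95% interval -0.19 to 0.15, adjusted p = 0.941). With mCherry-Fc Gfi1 ranged from 5.93 to 6.45 with a median of 6.21, against 6.30 to 6.60 with a median of 6.43 in untreated synthetic cells. It fell by 0.22 on the log2 scale (adjusted p = 0.0184), yet the call was lost without untreated array 7 (-0.19, adjusted p = 0.0572), without mCherry-Fc array 15 (-0.17, adjusted p = 0.0631), after centring (-0.11, adjusted p = 0.211), after quantile normalization (-0.12, adjusted p = 0.229) and in a fit of the compared groups only (adjusted p = 0.055). It was -0.22 within low and within high numbers and passed in neither (adjusted p = 0.0856 and 0.0573). With GFP-mCherry the difference was -0.10 (adjusted p = 0.266). The 5 group means of Gfi1 spanned 0.23, and all neighbours in their order overlapped.

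Klf1, the erythroid Krüppel-like activator of globin and membrane genes, was the only member that fell past the test with all 3 ligands. It read 7.21, 7.26, 7.04 and 7.40 with IL-22, against 8.35, 8.47, 8.25 and 8.33 in untreated natural cells. The highest IL-22 array lay well below the lowest untreated one. Klf1 fell 2.18-fold (log2 difference -1.12, SE 0.07, adjusted p = 3.11e-12), by 1.24 on the log2 scale within low and by 0.89 within high replicate numbers. The lowest, median and highest values were 8.36, 8.54 and 8.63 with GFP-mCherry, 8.55, 8.66 and 8.79 with mCherry-Fc, and 8.83, 8.92 and 9.00 in untreated synthetic cells. Neither ligand group overlapped the untreated arrays. The differences were -0.40 with GFP-mCherry (adjusted p = 1.5e-05) and -0.25 with mCherry-Fc (adjusted p = 0.00364). Centring took the mCherry-Fc value to -0.14 (adjusted p = 0.108), and the direction stayed the same. By mean level the order was IL-22 (7.23), untreated natural (8.35), GFP-mCherry (8.52), mCherry-Fc (8.67) and untreated synthetic cells (8.92), with overlap between untreated natural and GFP-mCherry and between the ligand groups of the synthetic line.

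Gata2, the GATA factor of stem and progenitor cells, fell with IL-22 and showed little movement in the synthetic line. It read 11.11, 10.96, 11.06 and 11.90 on IL-22 arrays 1, 2, 3 and 5, against 12.30, 12.26, 12.30 and 12.30 in untreated natural cells. All IL-22 arrays were lower, and array 5 lay nearer to the untreated arrays than to the other 3. Gata2 fell 2.05-fold (log2 difference -1.04, 95% interval -1.27 to -0.80, adjusted p = 7.67e-08). Without array 5 the difference was -1.25 (adjusted p = 1.79e-15). It was -1.24 within low replicate numbers (adjusted p = 5.4e-09) and -0.41 within high ones (adjusted p = 0.023), where array 5 is the only IL-22 array and stands in the range with high Itgam. The part of Itgam-bearing cells in this difference was not tested. Gata2 ranged from 12.30 to 12.50 with GFP-mCherry, from 12.40 to 12.51 with mCherry-Fc and from 12.34 to 12.43 in untreated synthetic cells, and these ranges overlapped. The differences of 0.04 (95% interval -0.15 to 0.23) and 0.07 (95% interval -0.12 to 0.27) did not pass (adjusted p = 0.784 and 0.573). The untreated synthetic arrays (mean 12.38) stood just above the untreated natural ones (12.29) without overlap, a difference of 0.08 that did not pass (adjusted p = 0.725).

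Gata1, the GATA factor of committed red cell and megakaryocyte precursors, did not pass with any ligand. It read 9.72, 9.67, 9.61 and 10.02 with IL-22, against 9.85, 9.92, 9.90 and 10.01 in untreated natural cells. IL-22 arrays 1 to 3 lay below every untreated array, while array 5 lay just above the highest of them. The difference was -0.16 (95% interval -0.34 to 0.01, adjusted p = 0.297), and without IL-22 array 5 it was -0.25 and passed (adjusted p = 0.0358). Medians were 10.09 with GFP-mCherry, 10.17 with mCherry-Fc and 10.13 in untreated synthetic cells. The mCherry-Fc arrays again divided, at 10.05 to 10.08 for numbers 8 to 10 and 10.25 to 10.33 for numbers 13 to 15. All neighbouring groups in the order of Gata1 means overlapped.

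Tal1 encodes the helix-loop-helix core of the complex. It read 9.47, 9.54, 9.40 and 9.28 with IL-22, against 9.68, 9.68, 9.36 and 9.26 in untreated natural cells, where both arrays of the high numbers were the lower ones. The difference of -0.08 did not pass (adjusted p = 0.695). Within low numbers it was -0.21 (adjusted p = 0.0235) and within high numbers -0.03 (adjusted p = 0.949). With GFP-mCherry Tal1 ranged from 9.93 to 10.19 with a median of 10.12, against 9.95 to 9.99 with a median of 9.95 in untreated synthetic cells. Of the 6 GFP-mCherry arrays 5 lay above the untreated mean and 1 below it. The difference of 0.14 did not pass (adjusted p = 0.108), and centring took it to 0.24 (adjusted p = 0.00732). Within low numbers it was 0.19 (adjusted p = 0.015) and within high numbers 0.08 (adjusted p = 0.43). With mCherry-Fc the difference was 0.05 (adjusted p = 0.608).

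Zfpm1 encodes FOG1, the GATA cofactor, and Lmo2 the adaptor that bridges TAL1 and GATA factors. Zfpm1 read 10.90, 10.90, 10.69 and 10.66 with IL-22, against 11.44, 11.57, 11.26 and 11.12 in untreated natural cells. The groups did not overlap, and in each the high numbers held the lowest value. Zfpm1 fell 1.48-fold (log2 difference -0.56, SE 0.09, adjusted p = 7.45e-05), by 0.67 on the log2 scale within low and by 0.53 within high numbers. Lmo2 read 9.43, 9.62, 9.40 and 9.35 with IL-22, against 10.07, 10.16, 9.79 and 9.63 in untreated natural cells. The highest IL-22 and the lowest untreated array nearly touched. Lmo2 fell 1.38-fold (log2 difference -0.46, SE 0.13, adjusted p = 0.0177), a call that leaving out IL-22 array 3 (adjusted p = 0.0531), untreated array 2 (0.0675) or untreated array 3 (0.0834) removed. It fell by 0.63 on the log2 scale within low numbers (adjusted p = 0.000263), and the difference of -0.36 within high numbers did not pass (adjusted p = 0.253).

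Neither Zfpm1 nor Lmo2 passed over all arrays of the synthetic line. Zfpm1 had medians of 11.01 with GFP-mCherry, 11.15 with mCherry-Fc and 11.11 in untreated cells, with differences of -0.07 (adjusted p = 0.544) and 0.07 (adjusted p = 0.548). Within low numbers Zfpm1 fell with GFP-mCherry (log2 difference -0.23, adjusted p = 0.0185), whereas within high numbers the difference was 0.10 (adjusted p = 0.422). Lmo2 ranged from 9.46 to 9.93 with GFP-mCherry, from 9.74 to 10.14 with mCherry-Fc and from 9.48 to 10.04 in untreated cells. The untreated arrays 7, 9 and 11 read 9.62, 9.48 and 9.49, whereas arrays 12, 13 and 14 read 9.84, 10.04 and 9.95, so that the spread within the group followed the number range. For GFP-mCherry the Lmo2 difference was -0.01 in all arrays (adjusted p = 0.971), 0.25 within low numbers (adjusted p = 0.036) and -0.27 within high numbers (adjusted p = 0.0673). For mCherry-Fc it was 0.21 (adjusted p = 0.148), 0.24 within low numbers (adjusted p = 0.0487) and 0.17 within high numbers (adjusted p = 0.225). Centring took it to 0.31 (adjusted p = 0.0393).

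Epor, which encodes the receptor for erythropoietin, went in opposite directions. It read 7.46, 7.65, 7.54 and 7.88 with IL-22, against 7.84, 7.80, 7.96 and 7.99 in untreated natural cells. IL-22 arrays 1 to 3 lay below all untreated arrays and array 5 among them. The difference of -0.26 passed (1.20-fold lower, 95% interval -0.43 to -0.10, adjusted p = 0.0315). The call did not hold in several settings. With the replicate number as a block, which in natural cells rests on numbers 2, 3 and 5 alone, the value was -0.18 (adjusted p = 0.096). After centring it was -0.24 (adjusted p = 0.089), and in a fit of the compared groups only the adjusted p was 0.173. The call was also lost without any 1 of IL-22 arrays 1, 2 or 3 or untreated arrays 4 or 5 (adjusted p = 0.157, 0.0574, 0.115, 0.091 and 0.103). Within low numbers the difference was -0.27 (adjusted p = 0.0324) and within high numbers -0.10 (adjusted p = 0.785). The lowest, median and highest values were 8.00, 8.10 and 8.13 with GFP-mCherry, 7.94, 8.04 and 8.22 with mCherry-Fc, and 7.68, 7.81 and 7.99 in untreated synthetic cells. All GFP-mCherry arrays lay above all untreated arrays, and mCherry-Fc array 8 alone lay inside the untreated range. Epor rose by 0.26 with GFP-mCherry (adjusted p = 0.00535) and by 0.25 with mCherry-Fc (adjusted p = 0.00805) on the log2 scale. After quantile normalization the mCherry-Fc value was 0.17 (adjusted p = 0.0506). Within low numbers it was 0.17 (adjusted p = 0.0944) and within high numbers 0.32 (adjusted p = 0.00896).

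Tfrc, which encodes the transferrin receptor that takes up iron, had the same pattern with larger values. It read 10.31, 10.37, 10.54 and 10.59 with IL-22, against 10.79, 10.64, 10.77 and 10.91 in untreated natural cells, and the groups did not overlap. Tfrc fell 1.26-fold (log2 difference -0.33, 95% interval -0.50 to -0.16, adjusted p = 0.00669). With the replicate number as a block the value was -0.28 and no longer passed (adjusted p = 0.0594), nor did it in a fit of the compared groups only (adjusted p = 0.056) or within high numbers (-0.25, adjusted p = 0.35). The lowest, median and highest values were 11.37, 11.52 and 11.64 with GFP-mCherry, 11.23, 11.36 and 11.40 with mCherry-Fc, and 10.90, 11.07 and 11.29 in untreated synthetic cells. GFP-mCherry arrays lay above every untreated array, and mCherry-Fc overlapped the untreated range at its lower end. Tfrc rose by 0.43 on the log2 scale with GFP-mCherry (SE 0.07, adjusted p = 2.61e-05) and by 0.26 with mCherry-Fc (SE 0.07, adjusted p = 0.00669). The mCherry-Fc difference was 0.31 within low numbers (adjusted p = 0.0111) and 0.20 within high numbers, where it did not pass (adjusted p = 0.0911). By mean level the order was IL-22 (10.45), untreated natural (10.78), untreated synthetic (11.09), mCherry-Fc (11.34) and GFP-mCherry (11.52), and only IL-22 was separated from its neighbour.

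The response to each synthetic ligand was set against the response to IL-22 by an interaction contrast in the same model. The GFP-mCherry response lay above the IL-22 response for 6 of the 10 genes and below it for none (background 9.23% higher and 4.40% lower). These were Gfi1b (1.22 on the log2 scale, 95% interval 0.99 to 1.46, adjusted p = 1.2e-08), Gata2 (1.08, adjusted p = 6.08e-06), Tfrc (0.76, adjusted p = 9.36e-06), Klf1 (0.72, adjusted p = 4.17e-06), Epor (0.52, adjusted p = 0.00091) and Zfpm1 (0.49, adjusted p = 0.0057). The mCherry-Fc response lay above it for 7 and below it for none (background 8.76% higher and 4.60% lower). Gfi1b differed by 1.30, Gata2 by 1.11, Klf1 by 0.87, Lmo2 by 0.67, Zfpm1 by 0.63, Tfrc by 0.58 and Epor by 0.51, with adjusted p from 4.93e-09 for Gfi1b to 0.00794 for Lmo2. Both differences take the natural arrays and the 6 untreated synthetic arrays in common, so they are not separate evidence. For Lmo2 the GFP-mCherry difference of 0.46 did not pass (adjusted p = 0.0736), and with the replicate number as a block it was 0.49 and did (adjusted p = 0.0466). Within low numbers it was 0.88 (adjusted p = 0.000274) and within high numbers 0.10 (adjusted p = 0.835). Gata1, Tal1 and Gfi1 passed in neither, although within low numbers the Tal1 differences of 0.41 and 0.24 did (adjusted p = 0.00259 for GFP-mCherry and 0.0469 for mCherry-Fc). Within high numbers, with 1 IL-22 array, Gata2 differed by 0.43 (adjusted p = 0.0434) for GFP-mCherry and by 0.53 (adjusted p = 0.0178) for mCherry-Fc, and the Epor values of 0.35 and 0.42 did not pass (adjusted p = 0.168 and 0.0949). Nor did Klf1 for GFP-mCherry (0.46, adjusted p = 0.0502) or Tfrc and Lmo2 for mCherry-Fc (0.45 and 0.54, adjusted p = 0.0959 and 0.108). The lines also differ in receptor structure and in ligand, so which of these goes with the difference cannot be told apart. Centring moved the share of higher calls over all genes to 83.2% in place of 67.7% for GFP-mCherry and to 82.8% in place of 65.6% for mCherry-Fc.

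**Figure D3:**
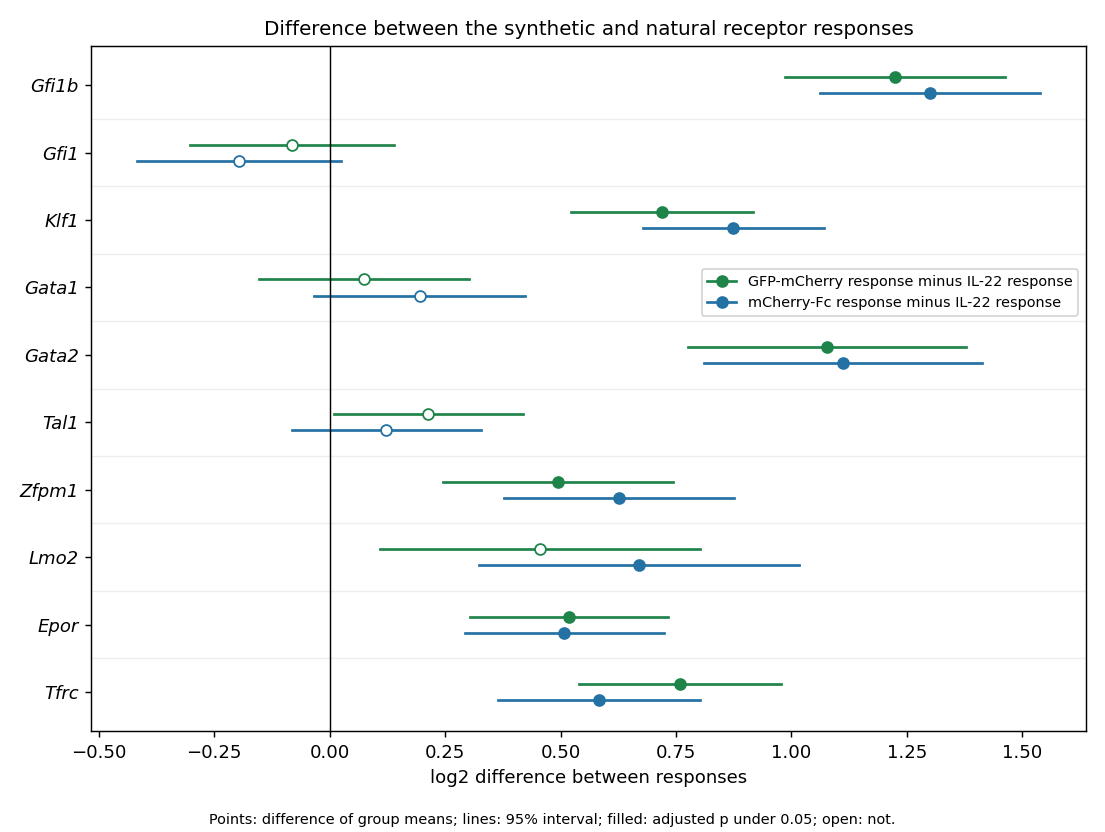
Log2 difference between the response to a synthetic ligand and the response to IL-22 (horizontal axis) for the 10 genes, with 95% intervals; filled points have an adjusted p under 0.05. Gfi1b and Gata2 lie above 1 for both ligands, and the points for Gfi1, Gata1 and Tal1 are open for both.

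GFP-mCherry, which can bind both synthetic chains, and mCherry-Fc, which has only the mCherry nanobody to bind, did not differ past the threshold for any of the 10 genes by limma (background 0.722% higher and 0.371% lower). At an unadjusted p under 0.05 there were 2, Klf1 and Tfrc. Klf1 was lower with GFP-mCherry than with mCherry-Fc by 0.15 (95% interval -0.28 to -0.03, adjusted p = 0.383), with all 6 GFP-mCherry arrays below the mCherry-Fc mean. Tfrc was higher by 0.17 (95% interval 0.04 to 0.31, adjusted p = 0.364), again with 6 of 6 arrays on that side. The widest interval was that of Lmo2, at -0.43 to 0.01. For Epor the interval was -0.13 to 0.15. Within high numbers Gfi1b was lower with GFP-mCherry by 0.27 (adjusted p = 0.0331) and Lmo2 by 0.44 (adjusted p = 0.0444), whereas within low numbers their differences were 0.12 and 0.01.

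Before any ligand, 5 of the 10 genes differed between the lines, 4 of them higher and 1 lower in untreated synthetic than in untreated natural cells (background 8.60% higher and 6.62% lower). Klf1 was higher by 0.57 (means 8.92 and 8.35, adjusted p = 6.17e-07), Tal1 by 0.46 (9.96 and 9.50, adjusted p = 2.68e-05), Tfrc by 0.31 (11.09 and 10.78, adjusted p = 0.00479) and Gata1 by 0.23 (10.15 and 9.92, adjusted p = 0.0424). Zfpm1 was lower by 0.28 (11.07 and 11.35, adjusted p = 0.0246). The synthetic and natural arrays did not overlap for Klf1, Tal1 and Gata1. The Gata1 call was lost without untreated natural array 2, 3 or 4 or untreated synthetic array 11, 13 or 14 (adjusted p = 0.0585 to 0.111), and that of Zfpm1 without untreated natural array 2 or 3 or untreated synthetic array 13 or 14 (0.0645 to 0.137). Within high numbers Gata1 did not pass (0.20, adjusted p = 0.126), and within low numbers Tfrc did not (0.26, adjusted p = 0.0688). Gfi1b differed by 0.23 in all arrays (adjusted p = 0.0593), by 0.33 within high numbers (adjusted p = 0.00134), by 0.12 within low numbers (adjusted p = 0.436) and by 0.29 without untreated natural array 3 (adjusted p = 0.0265). Lmo2 showed no single direction: it was lower by 0.18 in all arrays (adjusted p = 0.405), lower by 0.59 within low numbers (adjusted p = 0.000945) and higher by 0.23 within high numbers (adjusted p = 0.132). The lines share no replicate number, so line and any batch tied to the numbers cannot be told apart. Values within low or high numbers thus match the lines by that name only. For Lmo2, high minus low numbers gave -0.40 in untreated natural and 0.41 in untreated synthetic cells. Myeloid markers moved with this comparison: 6 of 13 were lower and 1 higher in the synthetic line, and their mean of log2 values was 6.51 to 6.76 in untreated synthetic and 6.99 to 7.93 in untreated natural cells. Of 11 measured megakaryocyte markers 3 were lower in the synthetic line (Thbs1 -2.34, Gp9 -0.77 and Ppbp -0.24) and none higher. Of 12 measured terminal erythroid markers 2 were lower (Hemgn -0.64 and Epb42 -0.46) and none higher. The part of these markers in the differences of the 10 genes was not tested.

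The other genes of the erythroid complex and its partners were read from a list of 18, all measured, of which 13 are not among the 10. Of these 13, 7 fell and 2 rose with IL-22 (background as above). Nfe2, a globin and platelet gene activator, fell by 1.11 on the log2 scale (adjusted p = 1.58e-08) and Cbfa2t3, the corepressor ETO2 of the complex, by 0.93 (adjusted p = 2.18e-12). Lyl1, the relative of Tal1, fell by 0.77 (adjusted p = 2.03e-07), Runx1 by 0.60 (adjusted p = 0.0321), Myb by 0.55 (adjusted p = 3e-05), Tcf3 by 0.26 (adjusted p = 0.0385) and Ldb1 by 0.23 (adjusted p = 0.00441). The 2 that rose were Etv6 (0.74, adjusted p = 1.08e-06), an ETS family repressor, and Ikzf1 (0.59, adjusted p = 2.77e-08), which encodes the lymphoid factor Ikaros. The mean of log2 values over all 18 was 9.63 to 9.80 on the IL-22 arrays and 10.00 to 10.04 on untreated natural arrays, without overlap. With GFP-mCherry 5 of the 13 fell and none rose (background 11.8% lower and 14.2% higher). With mCherry-Fc 3 fell and 1 rose (background 13.0% lower and 14.0% higher). Runx1 (-0.53 and -0.44), Ikzf1 (-0.26 and -0.16) and Tcf12 (-0.16 and -0.15) fell with GFP-mCherry and mCherry-Fc, in that order of values. Centring moved the median difference of all genes up by 0.10 and 0.11, and these 3 genes were not read after it. On the deposited scale Ikzf1 thus rose with IL-22 and fell with both synthetic ligands. Its response differed from that to IL-22 by -0.85 for GFP-mCherry (adjusted p = 8.59e-09) and -0.75 for mCherry-Fc (adjusted p = 7.39e-08). Between the synthetic ligands, Lyl1 and Erg were lower with GFP-mCherry than with mCherry-Fc (-0.36, adjusted p = 0.00697 and -0.32, adjusted p = 0.00351).

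Of 9 listed corepressor partners of GFI1B and GFI1, 3 fell with IL-22 and none rose, where 6.03% of all genes fell and 5.39% rose: Rcor3 (-0.40, adjusted p = 0.00534), Phf21a (-0.29, adjusted p = 0.00285) and Rcor1 (-0.18, adjusted p = 0.0196), all subunits of LSD1 complexes. With GFP-mCherry 2 rose and 2 fell (14.2% and 11.8% of all genes), and with mCherry-Fc 2 rose and none fell (14.0% and 13.0% of all genes). Hdac2 rose with both, by 0.25 (adjusted p = 0.0162) and 0.32 (adjusted p = 0.00321).

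With IL-22, genes around Epor went another way from Epor itself, although the Epor call did not hold in several settings. Of 10 measured genes of erythropoietin receptor signalling other than Epor, 7 rose with IL-22 and none fell (background 5.39% higher and 6.03% lower). The feedback inhibitors Socs3 and Cish rose by 4.30 (adjusted p = 7.24e-24) and 2.06 (adjusted p = 2.39e-12) on the log2 scale, the kinase gene Pim1 by 1.67 (adjusted p = 1.11e-07) and Stat5a by 1.53 (adjusted p = 1.86e-17). Jak2 rose by 0.74 (adjusted p = 3.57e-07), Csf2rb, the shared chain of the IL-3 receptor, by 0.71 (adjusted p = 0.00112) and the survival gene Bcl2l1 by 0.51 (adjusted p = 1.38e-05). With GFP-mCherry and with mCherry-Fc, 4 of the 10 rose and 1 fell. The backgrounds were 14.2% higher and 11.8% lower with GFP-mCherry, and 14.0% and 13.0% with mCherry-Fc. Those that rose were Pim1 (2.39 and 2.44), Socs3 (1.02 and 0.94), Cish (1.06 and 0.43) and Bcl2l1 (0.54 and 0.70). Erfe, an erythroblast hormone, fell (-0.25 and -0.31). Stat5a (-0.04 and -0.05) and Jak2 (0.01 and 0.04) did not pass with either. These genes are shared targets and parts of many cytokine receptors.

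Beside Tfrc, 12 other genes of iron uptake and storage were measured. Slc11a2, the endosomal iron transporter DMT1, rose with all 3 ligands: by 0.41 with IL-22 (adjusted p = 0.013), 0.40 with GFP-mCherry (adjusted p = 0.00191) and 0.33 with mCherry-Fc (adjusted p = 0.00954). It was the only one of the 12 called with IL-22, so that Tfrc and Slc11a2 moved in opposite directions there and in the same direction with the synthetic ligands. With GFP-mCherry 3 of the 12 rose and none fell. With mCherry-Fc 4 rose and Aco1, an iron regulatory protein, fell (-0.20, adjusted p = 0.0195). Of 11 measured genes of haem synthesis, 2 rose with IL-22 and 3 with each synthetic ligand, and none fell. Among all genes 5.39% rose and 6.03% fell with IL-22. The shares were 14.2% and 11.8% with GFP-mCherry and 14.0% and 13.0% with mCherry-Fc, so these small counts are a description. Slc25a37, the mitochondrial iron importer mitoferrin, rose by 0.40 with IL-22 (adjusted p = 0.000187), 0.31 with GFP-mCherry (adjusted p = 0.000308) and 0.37 with mCherry-Fc (adjusted p = 6.26e-05). Slc25a38, a mitochondrial glycine carrier, rose in all 3 comparisons too (0.39, 0.25 and 0.27). Alad, the second enzyme of the pathway, rose by 0.39 with GFP-mCherry and by 0.27 with mCherry-Fc. With IL-22 the Alad difference was -0.19 and did not pass (adjusted p = 0.239).

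Genes of terminal red cells and of platelets moved little with the ligands. The marker counts below stand beside the shares of all genes: 5.39% higher and 6.03% lower with IL-22. These shares were 14.2% and 11.8% with GFP-mCherry, and 14.0% and 13.0% with mCherry-Fc. Of 20 terminal erythroid markers 12 were measured, and none of the 12 was called with IL-22 by limma. The mean of log2 values over the 12 was 5.70 to 5.84 with IL-22 and 5.79 to 5.88 in untreated natural cells, below the array medians in every group. With GFP-mCherry Ank1, a membrane skeleton gene, fell (-0.19, adjusted p = 0.0112). With mCherry-Fc Ank1 fell (-0.18, adjusted p = 0.0216) and Rhd rose (0.23, adjusted p = 0.0128). Of 11 measured megakaryocyte markers none was called with IL-22, 2 fell with GFP-mCherry and 1 with mCherry-Fc. Itga2b, the platelet integrin chain, averaged 9.49 ± 0.13 with IL-22 and 9.38 ± 0.18 in untreated natural cells (SD, n = 4 each), while Pf4, platelet factor 4, averaged 4.13 in both groups, below the array medians. Of 12 measured mast cell markers other than Gata2, none was called with IL-22, 1 fell with GFP-mCherry and 3 with mCherry-Fc, and their mean of log2 values, Gata2 included, was 6.33 to 6.49 with IL-22 and 6.37 to 6.62 in untreated natural cells. Of 9 measured T cell markers, none was called with IL-22, 2 fell with GFP-mCherry and 5 with mCherry-Fc. Their mean of log2 values was 5.46 to 5.84 over all groups, below the array medians, and they were not read after centring. Myeloid markers with IL-22 rose in 2 and fell in 2 of 13, and their mean of log2 values spanned 6.98 to 7.86 with IL-22 and 6.99 to 7.93 in untreated natural cells, a wide span in both groups. With GFP-mCherry 3 of the 13 rose and none fell, and with mCherry-Fc 2 rose and 1 fell. Among them Cebpa fell by 0.40 with IL-22 (adjusted p = 0.00277). It rose by 0.76 with GFP-mCherry (adjusted p = 2.72e-08) and by 0.66 with mCherry-Fc (adjusted p = 5.8e-07). Prtn3 rose with all 3 ligands (0.29, 0.17 and 0.21). Among 13 B lineage markers 1 fell with IL-22, 1 rose and 2 fell with GFP-mCherry, and 2 fell with mCherry-Fc.

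For 5 of the 10 genes the 3 genes closest in pattern were named by Pearson's r of log2 intensity over the 26 arrays, given as a description, since the arrays share groups and lines. Gfi1b was closest to Fam222b (r = 0.961), Mylip (0.959) and Tmem229b (0.956), and Klf1 to Fam222b (0.989), Git2 (0.975) and Mast3 (0.971). Fam222b averaged 8.52 with IL-22 and 9.68 in untreated natural cells, and 9.86 with GFP-mCherry, 10.00 with mCherry-Fc and 10.17 in untreated synthetic cells, the same order of groups as Klf1. Once group means were taken out, r with Fam222b was 0.29 for Gfi1b and 0.66 for Klf1. Gata2 was closest to Nfe2 (r = 0.981), Cdkn1b (0.965), the gene of the cell cycle brake p27, and Agfg2 (0.961). Nfe2 read 9.24, 9.36, 9.32 and 10.10 on IL-22 arrays 1, 2, 3 and 5, against 10.53 to 10.71 in untreated natural cells, and Cdkn1b 7.69, 7.92, 7.80 and 8.99, against 9.23 to 9.67. Array 5 was thus the highest IL-22 array for all 3 genes, below every untreated one. Cdkn1b fell by 1.29 on the log2 scale (adjusted p = 6.61e-07). With group means removed, r with Gata2 was 0.90 for Nfe2 and 0.84 for Cdkn1b, and IL-22 array 5 is part of both values. Epor was closest to Gna11 (r = 0.938), Tspan3 (0.930) and Rgp1 (0.922), and Tfrc to Pi4k2a (0.966), Hsd17b4 (0.964) and Erp29 (0.954). Gna11, a G protein subunit gene, rose by 0.50 with GFP-mCherry (adjusted p = 6.74e-06) and by 0.50 with mCherry-Fc (adjusted p = 1.09e-05), while its IL-22 difference of -0.23 did not pass (adjusted p = 0.092). Pi4k2a, a lipid kinase gene of endosomes, fell by 0.30 with IL-22 (adjusted p = 0.00129). It rose by 0.40 with GFP-mCherry (adjusted p = 2.06e-06) and by 0.28 with mCherry-Fc (adjusted p = 0.000327), the same directions as Tfrc. A shared direction or order of groups follows from the choice of these genes by r over the same arrays. With group means removed, r was 0.47 for Pi4k2a with Tfrc and 0.88 for Gna11 with Epor.

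**Figure D4:**
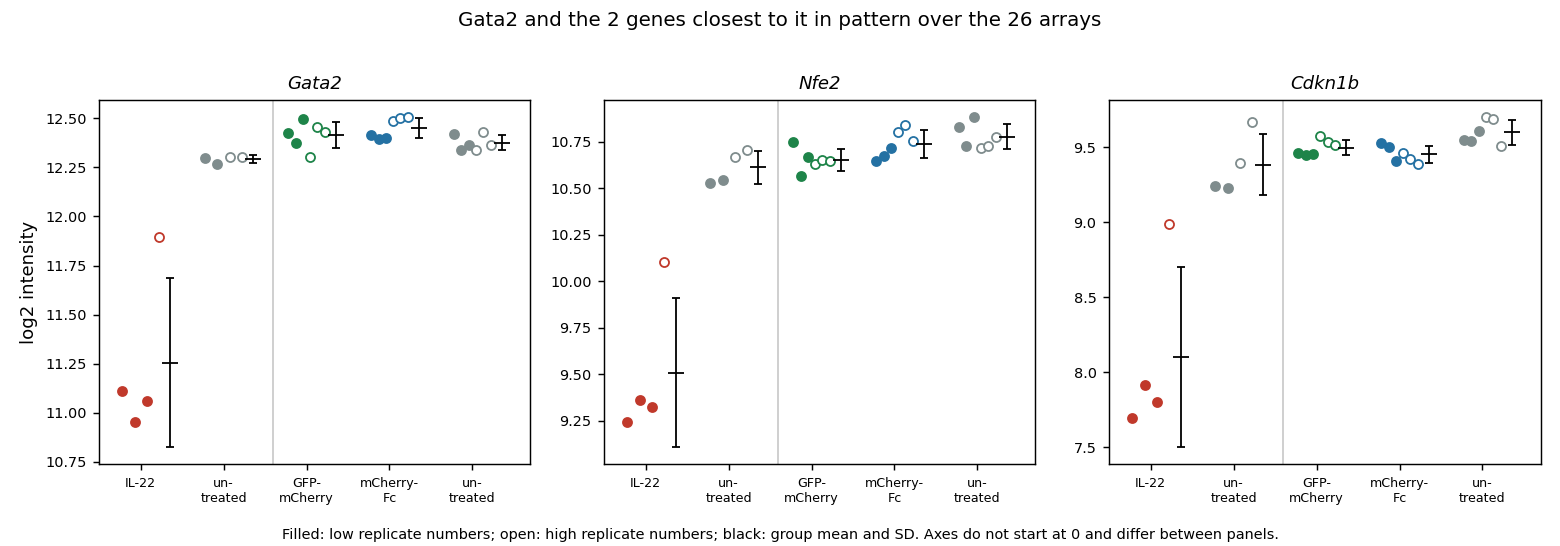
Log2 intensity (vertical axis) of Gata2, Nfe2 and Cdkn1b on each of the 26 arrays by group, with filled points for low and open points for high replicate numbers and black bars for the group mean and SD. In each panel IL-22 array 5 (open point) lies between IL-22 arrays 1 to 3 and the untreated natural arrays.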

How the data were processed

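The authors deposited one log2 intensity for each probe set and array. Affymetrix Expression Console 4.0 is named per the submitters' processing notes, with summaries of core genes or exons per the labels. Normalization algorithm, filters and genome build are not given in the sources used here. Of 35556 probe sets, 21789 carried 1 gene symbol in the annotation supplied, 1621 several and 12146 none; 21698 matched a current record by Entrez identifier. The brightest probe set by mean stood for a gene, with no filter. All 26 arrays in 5 groups entered one model (R 4.3.3, limma 3.58.1, lmFit and eBayes), tested two-sided with Benjamini-Hochberg adjustment over 19938 genes and a threshold of 0.05, and tested on simulated data. Array number limits precision.

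The members and lists were chosen with earlier results of these data known. Named genes are the members, up to 3 called genes of smallest p per list and comparison, and the 3 genes closest to each of Gfi1b, Klf1, Gata2, Epor and Tfrc; other list genes and Itgam were named after their values were seen. Deviations of same-numbered arrays from their group means correlated at 0.31 to 0.62 for natural cells. For mCherry-Fc with untreated cells the range was 0.26 to 0.47, and between ligands 0.11 to 0.27, each over 0.1. Between GFP-mCherry and untreated cells it was -0.15 to 0.42. The closest array of another number correlated higher in some cases (natural number 3, 0.35 against 0.31) and lower in others (natural number 5, 0.36 against 0.62). Since number ranges also part the arrays, these values do not settle whether the numbers pair arrays. Alternatives were quantile normalization, centring, mean probe sets, a dim gene filter at the 25th percentile and a trended robust prior. Others were fits of compared groups only, a replicate block, number ranges and leaving out each array. With the block, the natural difference rests on numbers 2, 3 and 5. IL-22 array 1 and untreated natural array 4 have no partner of their number and do not inform it.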

Additional observations from a re-analysis of the deposited data

Results flagged for a closer look

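Gata2 on IL-22 array 5 read 11.90, against 11.11 for the nearest of the other 3 IL-22 arrays, a gap large for the group's range of 0.94. Gata2 on untreated natural array 3 read 12.26, with the nearest array at 12.30 and a range of only 0.04. These were the 2 of 50 gene and group pairs with an array standing apart, and chance flags about 1 in 20.

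Responses to a synthetic ligand and to IL-22 differed by the interaction contrast in 13 cases. For GFP-mCherry minus IL-22 the log2 values were 1.22 for Gfi1b, 0.72 for Klf1, 1.08 for Gata2, 0.52 for Epor, 0.76 for Tfrc and 0.49 for Zfpm1. For mCherry-Fc minus IL-22 they were 1.30 for Gfi1b, 0.87 for Klf1, 1.11 for Gata2, 0.51 for Epor, 0.58 for Tfrc, 0.63 for Zfpm1 and 0.67 for Lmo2. Epor and Tfrc were called lower with IL-22 and higher with both synthetic ligands. Their IL-22 calls did not hold in several settings, which are given with these genes.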

How the results depend on the processing

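The number of the 10 genes called stayed within 1.5 times that reported in all but a few settings. Within high replicate numbers it was 4 in place of 7 for IL-22, 2 in place of 4 for mCherry-Fc, 2 in place of 0 for GFP-mCherry against mCherry-Fc and 4 in place of 7 for mCherry-Fc minus IL-22. That range holds 1 IL-22 array and 3 arrays of each synthetic group, and the cause of these moves was not tested. Leaving out 1 array at a time gave 5 to 8 called genes for IL-22, 4 in every case for GFP-mCherry, 3 to 5 for mCherry-Fc, 0 between the ligands, 6 to 8 for GFP-mCherry minus IL-22 and 7 in every case for that of mCherry-Fc. Between the untreated lines it gave 3 to 5, with 3 without untreated natural array 2 or untreated synthetic array 13 or 14. Lmo2 with GFP-mCherry turned direction: it was 0.25 within low numbers, against -0.01 in all arrays; the cause was not tested. With the replicate number as a block, Epor (-0.18, adjusted p = 0.096) and Tfrc (-0.28, adjusted p = 0.0594) lost their IL-22 calls and Lmo2 gained that for GFP-mCherry minus IL-22 (0.49, adjusted p = 0.0466), and no other call of the 10 genes changed; no block could be used between the untreated lines, which share no number. Most other lost or gained calls stand with their genes in the report. Further ones were Gfi1b between the untreated lines, which at 0.23 passed with the dim gene filter (adjusted p = 0.0439) and the trended prior (0.0411) beside the settings named in the report, Zfpm1 there, which lost its call with the compared groups only (0.132), and Tal1 with GFP-mCherry, which at 0.14 passed with the number range as a term (0.0186). Gfi1b with mCherry-Fc, at -0.18, passed with the number range as a term (adjusted p = 0.0236). It also passed with the dim gene filter (0.0493) and the trended prior (0.0473). For GFP-mCherry minus IL-22 the range term gave calls to Lmo2 (0.53, adjusted p = 0.00723) and Tal1 (0.29, 0.00534). Tal1 passed there without untreated natural array 5 (0.04). Lmo2 did after centring (0.0377) and without untreated natural array 5, GFP-mCherry array 12 or untreated synthetic array 13 (0.0326 to 0.0447). Probe sets not above background were not marked in the deposited values, so dim genes such as Gfi1 limit what can be read.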
